A study of Zea mays and Oryza sativa with 119 samples.

Results

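The genes described here encode kinds of enzyme with which C4 photosynthesis, in the mesophyll cells of the maize leaf, captures carbon dioxide and renews its acceptor. They are pep1 (GRMZM2G083841), a phosphoenolpyruvate (PEP) carboxylase, mdh6 (GRMZM2G129513), an NADP malate dehydrogenase, and the pyruvate phosphate dikinase (PPDK) genes C4ppdkZm1 (GRMZM2G306345) and CYPPDKZM2 (GRMZM2G097457), of which the second carries a name for a cytosolic enzyme. They were taken by identifier, as 4 of the 110005 features of the maize table, and all 4 were among the 23052 genes with a mean of at least 1 FPKM (fragments per kilobase of transcript and per mapped fragments of the library, a unit that allows for gene length).

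In C4 plants, PEP carboxylase fixes bicarbonate onto PEP in the mesophyll cytosol and gives oxaloacetate, which NADP malate dehydrogenase reduces to malate in the mesophyll chloroplast. Malate moves to the bundle sheath around the veins, where NADP-malic enzyme releases carbon dioxide beside Rubisco, and the pyruvate that is left returns to the mesophyll, where PPDK turns it back into PEP. Both PEP carboxylase and PPDK are controlled after synthesis as well: PEP carboxylase kinases phosphorylate the carboxylase and make it less sensitive to inhibition by malate, and the PPDK regulatory protein phosphorylates PPDK to switch it off in the dark and removes the phosphate again in the light.

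Polyadenylated RNA was sequenced from sections, each 1 cm long, of the third leaf of 9-day-old maize seedlings of the inbred line B73, grown in a cycle of light and dark. The 15 sections carry the numbers 1 to 4 and 6 to 16, and the labels do not say at which end of the leaf section 1 lies. Each library is a pool of 7 plants on average, and replicates 1, 2, 3, 4 and 6 were analysed here, from 6 that the study collected on different dates. No section received a treatment, so the only factor is position along the leaf. A section holds mesophyll, bundle sheath, epidermis and veins together, so the level of a gene in mesophyll cells alone was not measured, and fewer cells of a type cannot be told apart from less RNA per cell.

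Of 75 libraries, 6 of low depth were left out: section 1 replicate 2, section 3 replicate 6 and section 7 replicates 2, 3, 4 and 6. In these, 39.3 to 91.0% of the tested genes were listed at 0, against 6.16 to 33.0% in the 69 libraries kept, whose relative depth ranged 0.125 to 2. Depth was lower in section 8 (0.149 to 0.5, with 14.7 to 33.0% of tested genes at 0) than in section 6 (0.841 to 1.68, with 6.66 to 9.48% at 0). Section 7 thus has 1 library, and sections 1 and 3 have 4 each. Among the libraries kept, 46 resembled their own section most closely and 18 a neighbouring one, while 5 resembled a section at least 2 steps away (section 12 replicate 4, section 14 replicates 2 and 3, section 15 replicate 6 and section 16 replicate 3). Section 14 replicate 2 resembled section 4 most closely (r = 0.909), against r = 0.76 with its own section, and it stayed in the section 14 means. In the others, r with the own section was 0.902 to 0.946, close to that of the best match (0.922 to 0.947). Section 16 replicate 6 had an FPKM sum of 1689977, the highest of the libraries kept, and its genes stood at a median of 2.01 times their level in the other section 16 libraries. Section 2 replicate 6 resembled section 2 most closely, but less so (r = 0.887) than the other section 2 libraries (r = 0.943 to 0.953). The summed level of 5 leaf greening markers (light-harvesting proteins, a photosystem I subunit and a GLK regulator) was 593 to 713 FPKM in section 1, 8105 to 9495 in section 4, 8670.3 to 12112 in section 9 and 4917 to 10126 in section 16, and the lowest library of any section was that of 593 FPKM, so none lacked these markers. Values below are given in the order of the replicate numbers.

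pep1, the gene of the carboxylase that fixes carbon first, was lowest in section 1 and levelled off at about section 8. It had 41.5, 32.8, 35.1 and 64.4 FPKM in the 4 libraries of section 1 and 157, 150.2, 145, 148 and 942 FPKM in the 5 of section 2. Section 2 was narrow but for replicate 6, which lay far above the other 4 libraries. The libraries of section 4 gave 1005, 836, 938, 909.8 and 1220.3 FPKM, and those of section 6 gave 1249, 1151, 1139.7, 1218 and 1404 FPKM. The highest mean was that of section 8, 2316 ± 90.7 FPKM (SD, n = 5), made of 2389, 2179, 2376, 2368 and 2267 FPKM. From section 8 on the level stayed within 790.2 to 3539 FPKM over 45 libraries, and both ends of that range came from libraries that stand apart, section 14 replicate 2 at the low end and section 16 replicate 6 at the high end. Section 9 held 1904, 2266, 2174, 2183 and 2012 FPKM and section 16 held 1868, 1753, 1673, 1793 and 3539 FPKM, so the sections overlapped. Ordered by mean level, 3 of 14 pairs of neighbours were apart, each section's libraries lying clear of the next: section 2 above 1, section 4 above 3, and section 13 above 6. The other 11 pairs overlapped.

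mdh6, which encodes the chloroplast enzyme that makes malate, covered the narrowest range of the 4 genes. Section 1 held 46.0, 43.6, 42.7 and 48.4 FPKM, inside the range of pep1 there. Section 2 held 107, 106, 96.3, 101 and 275 FPKM, and replicate 6 again stood above the other 4. Section 4 held 289, 264, 298, 280.1 and 339.7 FPKM. Its highest mean was in section 9, 616 ± 35.0 FPKM (SD, n = 5), where the libraries gave 562, 617, 628, 659 and 614 FPKM. Section 16 gave 405, 395, 384, 380.2 and 897 FPKM: 4 of the 5 libraries lay below every library of section 9, and replicate 6 lay above them all. In the order of means, section 9 was apart from section 10, the next lower at 546 ± 13.8 FPKM (SD, n = 5), sections 1 and 2 were apart, and so were sections 3 and 4; the other 11 pairs overlapped.

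C4ppdkZm1, the PPDK gene named for the C4 pathway, was the most abundant of the 4 in every section and among the most abundant transcripts of the leaf. It had 223, 186, 185 and 351 FPKM in section 1 and 1129, 1063, 1058, 989 and 6048 FPKM in section 2. Section 4 held 6452, 5438, 5730.1, 5006 and 7389 FPKM and section 9 held 14016, 16137, 16119, 14833 and 14926 FPKM, with no overlap between them. Its share of all FPKM in a library was 0.0254 ± 0.0087% in section 1 (SD, n = 4), 0.529 ± 0.119% in section 4, 1.73 ± 0.0981% in section 9 and 1.91 ± 0.328% in section 15 (SD, n = 5 each). It was the first of all features in 14 of 69 libraries and within the first 5 in 45, whereas the best ranks of pep1, mdh6 and CYPPDKZM2 were 63, 195 and 234. Its highest mean was that of section 16, 18948 ± 7223 FPKM (SD, n = 5), from 17615, 15739, 14353, 15339.6 and 31695 FPKM, where replicate 6 lay far above the other 4. As a share of the library's FPKM, which takes out the high sum of that library, section 16 stood at 1.75 ± 0.164% (SD, n = 5). The neighbours in the order of means were apart at sections 1 and 2, 3 and 4, 6 and 10, and 11 and 7. Section 7 has 1 library kept and so no spread, which makes being apart from section 11 a weaker statement. The other 10 pairs overlapped.

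CYPPDKZM2 carries a name for a cytosolic PPDK and was far lower than C4ppdkZm1 in every library. It had 3.99, 2.94, 4.37 and 6.38 FPKM in section 1 and 104, 73.6, 86.3, 63.7 and 124 FPKM in section 4. Section 6 still held only 134, 105, 116, 102 and 129.6 FPKM, and section 8 held 343, 330.5, 370.2, 299 and 349 FPKM, with every library of section 8 above every library of section 6. Section 9 held 346, 458, 471, 359 and 402 FPKM and section 16 held 522, 412, 363, 346 and 769.6 FPKM, with much overlap. Between them the means dipped to 255 ± 12.9 FPKM in section 10 (SD, n = 5), a difference from section 9 that did not pass the test (log2 change -0.66 ± 0.31, adjusted p = 0.254, limma). In the order of means, 2 of 14 neighbours were apart (sections 1 and 2, and sections 6 and 10). Reads that fit both PPDK genes can be shared between them, how they were divided is not given in the sources used here, and the reference table also lists a cytosolic transcript, cyppdkZm1, under C4ppdkZm1; the levels of both genes are therefore uncertain to an extent that was not tested.

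**Figure D1:**
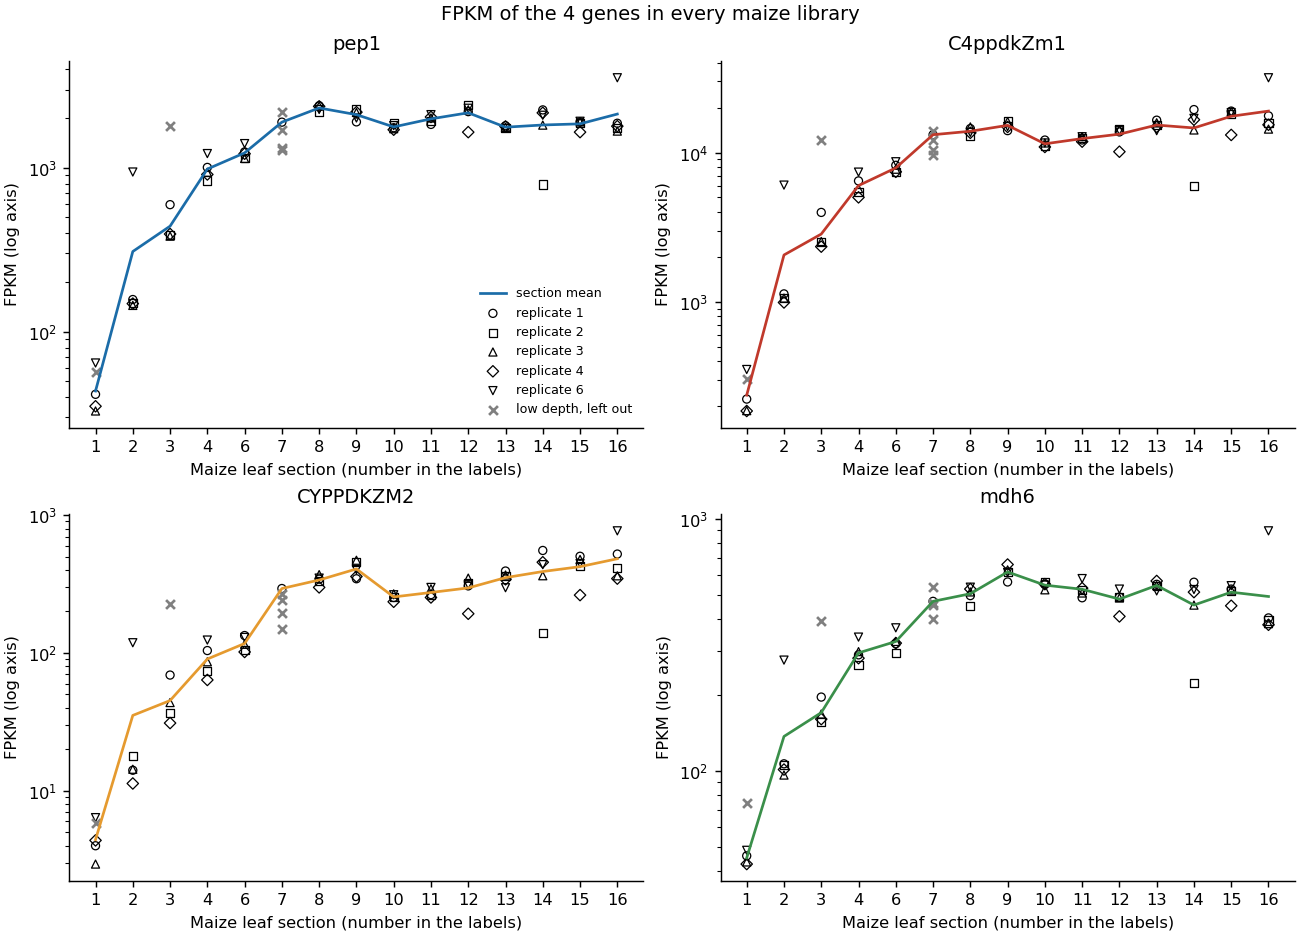
FPKM (log axis) of pep1, C4ppdkZm1, CYPPDKZM2 and mdh6 in every maize library by leaf section. Symbols mark replicates, lines join the means of the libraries kept, and grey crosses are the 6 libraries left out. All 4 genes are lowest in section 1; replicate 6 stands above its section in sections 2 and 16, and section 14 replicate 2 lies below its own.

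The low-depth libraries that were left out did not all read like the ones kept. Section 3 replicate 6 read 1789 FPKM for pep1, against 383 to 596 FPKM in the 4 libraries of section 3 that were kept, and its profile resembled section 8 most closely. In section 7, the 4 libraries left out read 1287 to 2182 FPKM for pep1, on both sides of the 1897 FPKM of the library kept. The level of each gene differed among the 14 sections with replicates by limma's F-test, with ranges of section means of 5.75 (pep1), 3.74 (mdh6), 6.30 (C4ppdkZm1) and 6.45 (CYPPDKZM2) on the log2 scale and adjusted p of 3.41e-28, 8.32e-27, 2.05e-29 and 1.33e-27. With 80.8% of all tested genes called by that test, a difference somewhere along the leaf was the rule.

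To see where along the leaf the genes changed, section 4 was set against section 1, section 9 against section 4, and section 16 against section 9. Here and below, fold changes are differences of log2(FPKM + 1) with their standard errors, fitted with limma over all tested genes, p-values are adjusted by the Benjamini-Hochberg method, and a gene is called where the adjusted p is under 0.05 and the log2 change is 1 or more in either direction. Each limma p-value rests on a spread between pools of plants estimated over all 69 libraries, not over the compared sections alone. A library far from its section therefore widens the standard errors of the other sections too. For pep1 in section 9 against 8 the standard error was 0.259, and 0.168 without section 2 replicate 6.

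All 4 genes rose between sections 1 and 4. pep1 averaged 982 ± 146 FPKM in section 4 (n = 5) and 43.5 ± 14.5 FPKM in section 1 (SD, n = 4), a log2 change of 4.50 ± 0.27, adjusted p = 3.11e-21. mdh6 averaged 294 ± 28.4 FPKM in section 4 and 45.2 ± 2.58 FPKM in section 1, a log2 change of 2.67 ± 0.19, adjusted p = 2.08e-18. Its change was the smallest of the 4. C4ppdkZm1 averaged 6003 ± 937 FPKM in section 4 and 236 ± 78.6 FPKM in section 1, a log2 change of 4.70 ± 0.27, adjusted p = 6.06e-22. CYPPDKZM2 averaged 90.4 ± 24.1 FPKM in section 4 and 4.42 ± 1.44 FPKM in section 1, a log2 change of 4.07 ± 0.33, adjusted p = 4.06e-16. Of all tested genes, 19.2% were called higher and 18.1% lower in this comparison, with a median change of -0.02. In every library of section 4, each of the 4 genes was above every library of section 1. The share of all tested genes that lay apart in this way was not counted, here or for the other sections.

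The genes rose again between sections 4 and 9. pep1 averaged 2108 ± 146 FPKM in section 9 and 982 ± 146 FPKM in section 4 (SD, n = 5 each), a log2 change of 1.11 ± 0.26, adjusted p = 0.000267. mdh6 averaged 616 ± 35.0 FPKM in section 9 and 294 ± 28.4 FPKM in section 4, a log2 change of 1.07 ± 0.18, adjusted p = 1.47e-06. C4ppdkZm1 averaged 15206 ± 913 FPKM in section 9 and 6003 ± 937 FPKM in section 4, a log2 change of 1.35 ± 0.26, adjusted p = 1.50e-05. The low PPDK gene had the largest change of the 4: CYPPDKZM2 averaged 407 ± 56.5 FPKM in section 9 and 90.4 ± 24.1 FPKM in section 4, a log2 change of 2.19 ± 0.31, adjusted p = 4.83e-08. Here 5.03% of tested genes were called higher and 30.3% lower, and the median gene changed by -0.59. Relative to that median, the changes were 1.70 for pep1, 1.66 for mdh6, 1.94 for C4ppdkZm1 and 2.78 for CYPPDKZM2. The relative depth was 0.354 to 0.841 in section 9 and 0.841 to 1.68 in section 4. Its part in the median and in the shares called was not tested. In both comparisons the 4 genes kept their calls and directions under all 16 alternative settings.

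Between sections 9 and 16 none of the 4 genes was called, where 7.67% of tested genes were called higher and 4.49% lower. pep1 averaged 2125 ± 794 FPKM in section 16 and 2108 ± 146 FPKM in section 9 (SD, n = 5 each; log2 change -0.05 ± 0.26, adjusted p = 0.947). C4ppdkZm1 averaged 18948 ± 7223 FPKM in section 16 and 15206 ± 913 FPKM in section 9 (log2 change 0.25 ± 0.26, adjusted p = 0.531). Replicate 6 was the highest of section 16 for all 4 genes, and far above the rest for pep1, C4ppdkZm1 and mdh6. CYPPDKZM2 averaged 483 ± 174 FPKM in section 16 and 407 ± 56.5 FPKM in section 9 (log2 change 0.19 ± 0.31, adjusted p = 0.724). mdh6 averaged 492 ± 226 FPKM in section 16 and 616 ± 35.0 FPKM in section 9 (log2 change -0.41 ± 0.18, adjusted p = 0.0874). Without section 16 replicate 6, the mdh6 log2 change was -0.65 ± 0.17 with an adjusted p of 0.00273 by limma, still under the size needed for a call (range of adjusted p over the 16 alternatives 0.000215 to 0.338), and the changes of pep1, C4ppdkZm1 and CYPPDKZM2 were -0.25, 0.05 and 0.01.

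**Figure D2:**
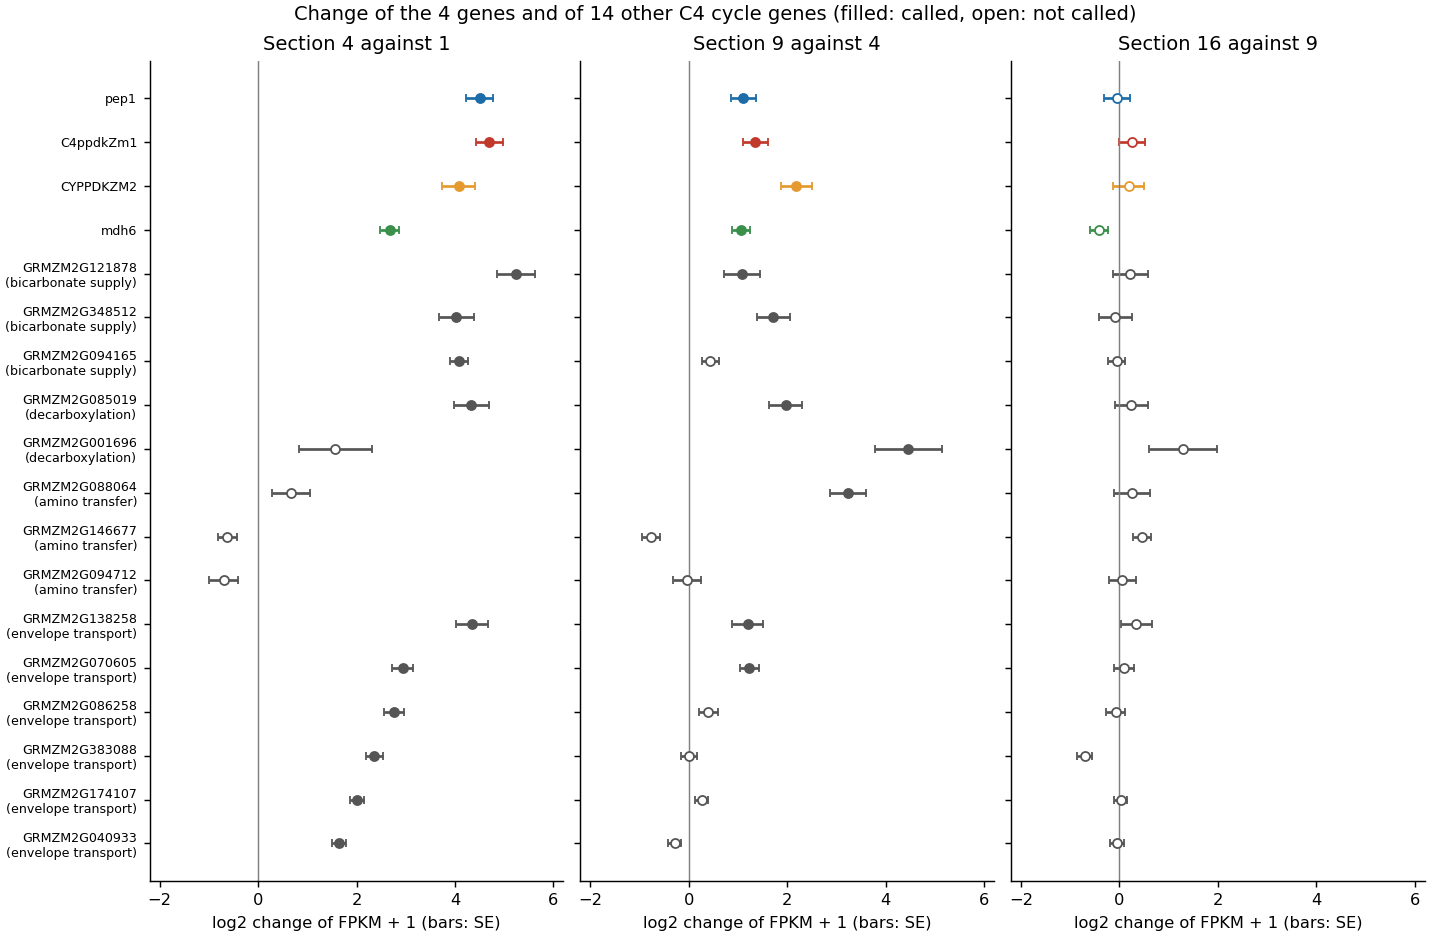
Change in log2(FPKM + 1) with its standard error for the 4 genes and 14 other C4 cycle genes, section 4 against 1, 9 against 4 and 16 against 9. Filled points were called and open points were not. The 4 genes are filled in the first 2 panels and open in the third.

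Setting each section against the one before it, with 13 steps in all and section 8 against 6 in place of the steps at section 7, showed at which positions the genes moved. All 4 rose at the first step, section 2 against section 1, with log2 changes of 2.34 ± 0.27, adjusted p = 6.28e-10 for pep1, 1.45 ± 0.19, adjusted p = 1.63e-08 for mdh6, 2.71 ± 0.27, adjusted p = 8.34e-12 for C4ppdkZm1 and 2.12 ± 0.33, adjusted p = 9.93e-07 for CYPPDKZM2 (limma), where 7.92% of tested genes were called higher. With all 69 libraries it was the largest step of each gene and the only one called for mdh6. Without section 2 replicate 6 the first step was smaller, 1.81 for pep1, 1.17 for mdh6, 2.21 for C4ppdkZm1 and 1.52 for CYPPDKZM2, all still called, and for CYPPDKZM2 it was level with section 3 against 2 (1.54) and section 8 against 6 (1.53). In section 4 against section 3, where 3% of tested genes were called higher, pep1 rose by 1.17 ± 0.27, adjusted p = 0.00256, C4ppdkZm1 by 1.10 ± 0.27, adjusted p = 0.00469 and CYPPDKZM2 by 1.01 ± 0.33, adjusted p = 0.0387 (limma). The mdh6 change at that step was 0.78 ± 0.19, adjusted p = 0.00362, under the size threshold. In section 8 against section 6, where 1.95% were called higher, CYPPDKZM2 rose by 1.53 ± 0.31, adjusted p = 0.000205 (limma). The other 3 genes had changes of 0.91 (pep1), 0.82 (C4ppdkZm1) and 0.63 (mdh6) there, with adjusted p of 0.00566, 0.0130 and 0.00608 and sizes under the threshold. No step lowered any of the 4 genes past the test, and none after section 8 was called in either direction. Such calls were also rare among all tested genes there: 1.69% higher in section 9 against 8 (where 191 of the 23052 genes were lower), 0.33% higher and 1.26% lower in section 10 against 9, 0.0174% higher and 0.0304% lower in section 13 against 12, 0.00434% lower in section 12 against 11, 0.013% lower in section 15 against 14 and 0.013% higher in section 16 against 15, with 0 in the other directions of the steps after section 10. At the earlier steps, 5.51% were called lower in section 2 against 1, 3.12% in section 3 against 2, 2.59% in section 4 against 3, 4.21% in section 6 against 4 (0.72% higher) and 16.2% in section 8 against 6. The libraries of section 8 were of lower depth than those of section 6, and the part of depth in that share was not tested.

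The calls of section 2 against 1 held for all 4 genes under the 16 alternatives. Those of section 3 against 2 and section 4 against 3 depended on the libraries kept, the scaling and the treatment of the replicates. Replicate 6 was the highest library of sections 1, 2 and 4 for all 4 genes, and its section 4 library resembled section 6 most closely. Section 2 replicate 6, at 942 FPKM for pep1, lay above every library of section 3 that was kept. Without it, an alternative chosen after seeing the data, section 3 was called above section 2 for pep1 (log2 change 1.52 ± 0.19), C4ppdkZm1 (1.39 ± 0.20) and CYPPDKZM2 (1.54 ± 0.25), and the calls over the 4 genes numbered 11 in place of 8. With all libraries, the changes of section 3 against section 2 were 0.99 (pep1), 0.89 (C4ppdkZm1), 0.94 (CYPPDKZM2) and 0.44 (mdh6), none called, where 3.83% of tested genes were called higher. With the replicate number, a collection date, as a block, pep1 (1.08, adjusted p = 0.00161) and CYPPDKZM2 (1.03, adjusted p = 0.0148) were called in section 3 against 2, and CYPPDKZM2 lost its call in section 4 against 3 (0.92, adjusted p = 0.0406, limma). That call of CYPPDKZM2 was lost in 11 of the 16 alternatives, with log2 changes there of 0.54 to 1.17 (adjusted p over the 16 alternatives 0.00183 to 0.637, limma). At the same step C4ppdkZm1 lost its call in 4 alternatives (0.58 with quantile normalization, 0.67 with all 75 libraries, 0.94 with equal FPKM sums and 1.07 without replicate 3) and pep1 in 2 (0.76 with all 75 libraries and 1.12 without replicate 3). Without replicate 3, 5 calls were left: pep1, C4ppdkZm1 and CYPPDKZM2 were no longer called in section 4 against 3 (adjusted p 0.0513, 0.0690 and 0.170, within ranges over 16 alternatives of 2.09e-06 to 0.213, 2.51e-05 to 0.299 and 0.00183 to 0.637, limma).

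The genes approached their later level at different positions. For each replicate, the level in a section was taken as a percentage of the median over sections 8 to 16 of the same replicate, a measure chosen after seeing the data and given without a test. In section 1, mdh6 already stood at 8.56 ± 0.350% of its later level, and pep1, C4ppdkZm1 and CYPPDKZM2 at 2.24 ± 0.595%, 1.68 ± 0.563% and 1.31 ± 0.434% (SD, n = 4). In section 4, mdh6 stood at 55.9 ± 4.43%, pep1 at 51.1 ± 5.15%, C4ppdkZm1 at 42.5 ± 6.46% and CYPPDKZM2 at 26.6 ± 6.06% (SD, n = 5). CYPPDKZM2 was thus the furthest from its later level. In section 6 the values were 62.1 ± 4.08% for mdh6, 64.3 ± 3.66% for pep1, 55.8 ± 3.86% for C4ppdkZm1 and 34.7 ± 3.12% for CYPPDKZM2 (SD, n = 5). mdh6 first reached 50% in section 4 in replicates 1 to 4 and in section 2 in replicate 6. That section 2 library, at 50.7%, lay far above the others of its section, and the section 3 library of replicate 6 was left out. pep1 reached 50% in section 4 in replicates 1, 4 and 6 and in section 6 in replicates 2 and 3. This split was narrow, as pep1 stood in section 4 at 49.3% in replicate 3 and 50.7% in replicate 4. C4ppdkZm1 reached 50% in section 6 in replicates 1 to 4 and in section 4 in replicate 6. CYPPDKZM2 reached 50% in section 8 in 4 replicates and in section 7 in replicate 1, the only one with a section 7 library kept. In each replicate the order was mdh6 first or level with pep1, and CYPPDKZM2 last.

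**Figure D3:**
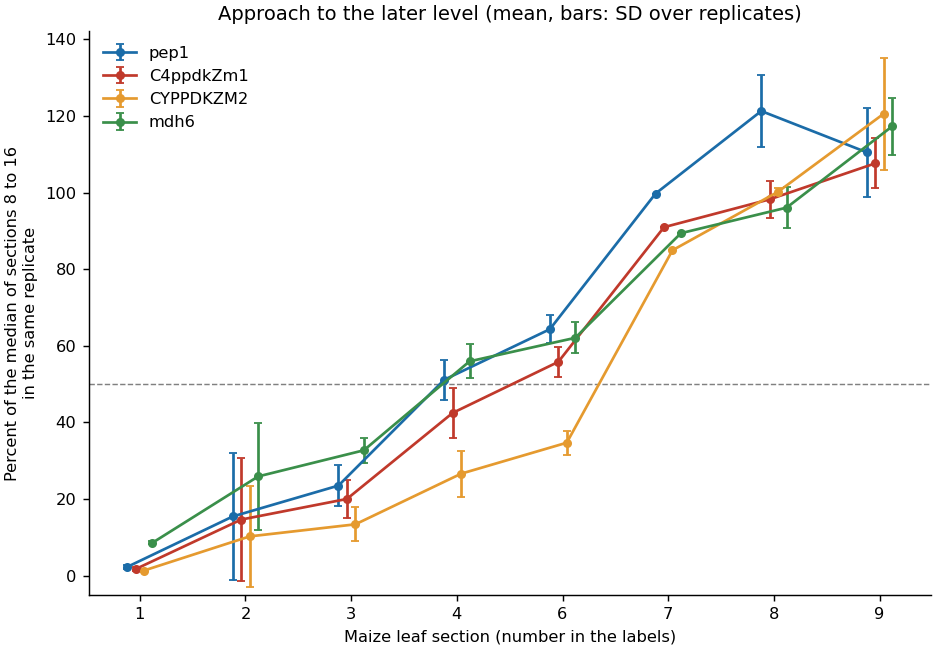
Level of the 4 genes in sections 1 to 9 as a percentage of the median over sections 8 to 16 of the same replicate. Points are means and bars are SD over replicates (n = 4 in sections 1 and 3, 1 in section 7, 5 elsewhere), and the dashed line is at 50%. In section 6, CYPPDKZM2 is at 34.7% while the other 3 genes are between 55.8 and 64.3%.

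Ratios between the genes within a library show whether the genes changed by different amounts. A ratio of FPKM does not depend on how its library was scaled, but the tests used the log2 ratio of FPKM + 1, which does for a gene near 1 FPKM. These were two-sided exact permutation tests over libraries, adjusted by the Benjamini-Hochberg method over 9 tests. They treated the libraries as independent, although the replicate numbers, which are collection dates, pair the sections. No paired form of these tests was run, so the p-values of the ratios do not allow for that pairing. The smallest p these tests allow is 0.0159 for 5 against 4 libraries and 0.00794 for 5 against 5.

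The ratio of C4ppdkZm1 to pep1 was higher in the later section in all 3 comparisons, but it did not climb steadily between them. Its FPKM stood at 6.12 ± 0.396 times that of pep1 in section 4 (SD, n = 5) and 5.44 ± 0.168 times in section 1 (SD, n = 4). The log2 ratio of pep1 over C4ppdkZm1 was lower by -0.19 in section 4 than in section 1 (exact p = 0.0317, adjusted p = 0.0408). In section 9 C4ppdkZm1 stood at 7.22 ± 0.268 times pep1, a log2 ratio difference from section 4 of -0.24 (exact p = 0.00794, adjusted p = 0.0179). In section 16 it stood at 8.90 ± 0.358 times pep1, a difference from section 9 of -0.30 (exact p = 0.00794, adjusted p = 0.0179). The means of other sections did not follow this order: the ratio was 6.93 ± 0.376 in section 2, above that of section 4, 5.99 ± 0.192 in section 8 and 6.14 ± 0.147 in section 12, so section 9 was the highest of sections 8 to 12 (SD, n = 5 each). Along the later sections this ratio showed a step: over the 20 libraries of sections 13 to 16 it ranged 7.53 to 9.96, and over the 25 libraries of sections 8 to 12 it ranged 5.72 to 7.42, with no overlap. That split was read from the data and was not tested. The libraries of these sections that resembled a distant one, section 14 replicates 2 and 3 and section 16 replicate 3, gave 7.53, 7.78 and 8.58, and section 16 replicate 6 gave 8.96.

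pep1 and mdh6 began at a like level and separated. pep1 stood at 3.33 ± 0.197 times mdh6 in section 4 (SD, n = 5) and at 0.952 ± 0.260 times in section 1 (SD, n = 4), and the log2 ratio of mdh6 over pep1 differed by -1.83 (exact p = 0.0159, adjusted p = 0.0238). In section 9 pep1 stood at 3.42 ± 0.157 times mdh6, a difference from section 4 of -0.04 that did not pass the test (exact p = 0.381, adjusted p = 0.429). In section 16 it stood at 4.41 ± 0.298 times, a difference from section 9 of -0.36 (exact p = 0.00794, adjusted p = 0.0179). Between these sections the ratio moved up and down, with means of 4.60 ± 0.248 in section 8, 3.25 ± 0.102 in section 10, 4.49 ± 0.328 in section 12 and 3.25 ± 0.0778 in section 13 (SD, n = 5 each), so the section 16 value is not the end of a steady rise.

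The factor between the PPDK genes was higher in section 4 than in section 1 and lower from section 8 on than in section 6. C4ppdkZm1 stood at 68.1 ± 8.00 times CYPPDKZM2 in section 4 (SD, n = 5) and at 54.2 ± 8.67 times in section 1 (SD, n = 4). The log2 ratio of CYPPDKZM2 over C4ppdkZm1 was lower by -0.63 in section 4 than in section 1 (exact p = 0.0159, adjusted p = 0.0238), and by -0.37 with a pseudocount of 0.1, where CYPPDKZM2 had 2.94 to 6.38 FPKM in section 1. In section 9 C4ppdkZm1 stood at 37.7 ± 3.16 times CYPPDKZM2, and the log2 ratio was higher by 0.84 than in section 4 (exact p = 0.00794, adjusted p = 0.0179). The factor was 67.7 ± 4.35 in section 6, 44.8 in the single library of section 7 and 41.1 ± 2.66 in section 8, so the means parted between sections 6 and 8. It moved within narrower limits after that, with 44.9 ± 2.15 in section 10, where no library overlapped those of section 9, 43.6 ± 2.05 in section 13 and 38.4 ± 2.97 in section 14 (SD, n = 5 each). In section 16 it was 39.4 ± 3.89, a log2 ratio difference from section 9 of -0.06 that did not pass the test (exact p = 0.484, adjusted p = 0.484). Over all 45 libraries of sections 8 to 16 the factor ranged 33.7 to 52.6, and over the 19 of sections 2 to 6 it ranged 51.0 to 87.5. With 1 replicate left out, the 7 ratio differences that passed kept their direction. Without replicate 2, 6 of the 7 kept an adjusted p of 0.0429, and in every other such case the adjusted p was 0.0643 to 0.147, in exact tests on fewer libraries. Fewer libraries raise the smallest p these tests allow. These values therefore cannot tell whether a difference rests on the replicate left out.

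**Figure D4:**
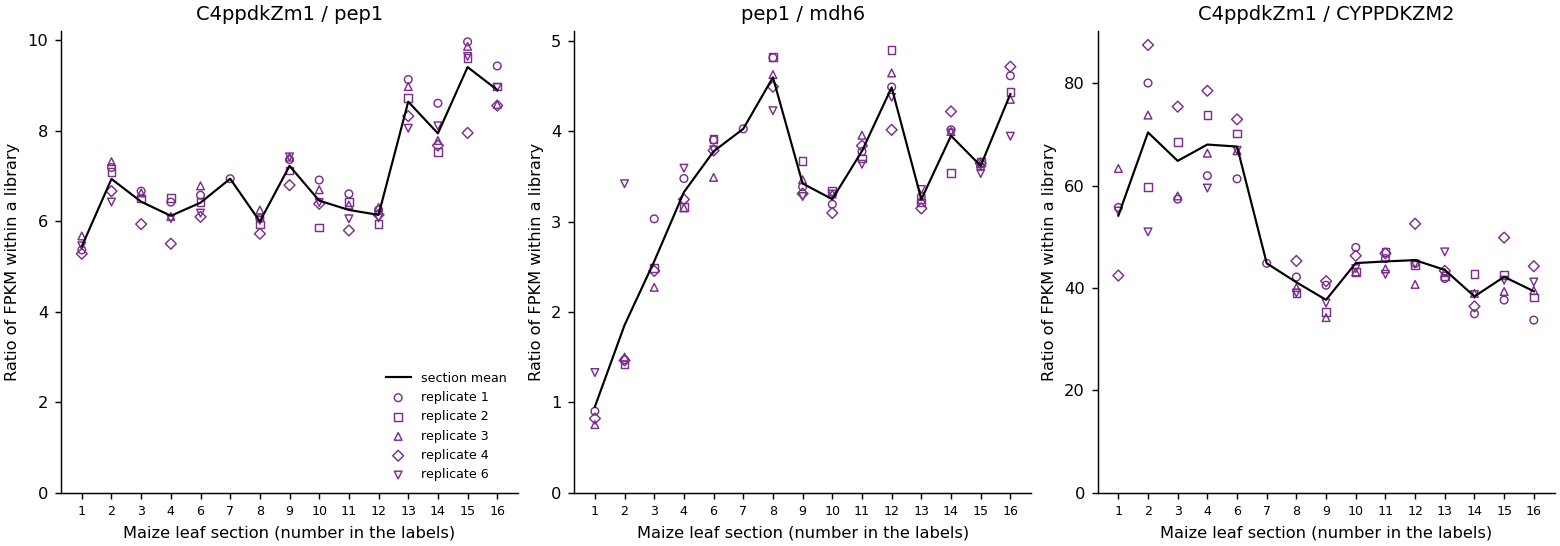
Ratio of FPKM within each library by leaf section, for C4ppdkZm1 over pep1, pep1 over mdh6 and C4ppdkZm1 over CYPPDKZM2. Symbols are libraries by replicate and the line joins section means. The first ratio is 7.53 to 9.96 in sections 13 to 16, and the third lies above 50 in sections 2 to 6 and between 33.7 and 52.6 from section 8 on.

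The relatives of these genes were described beside them: the PEP carboxylase genes pep7 and pep4, the PEP carboxylase kinase genes PPCK1 to PPCK4, and pdrp1, the gene of the PPDK regulatory protein. Of these 7, 6 were tested, and PPCK3 (at most 1.85 FPKM in sections 1, 4, 9 and 16) was too low. In section 4 against 1, 2 of the 6 were called higher and 1 lower, where 19.2% of all tested genes were higher and 18.1% lower. In section 9 against 4, 1 was higher and 3 lower (5.03% and 30.3% of all tested genes), and in section 16 against 9, 1 was higher and none lower (7.67% and 4.49%). The 1 of 6 called lower in section 4 against 1 is near the share over all genes.

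pdrp1, whose protein switches PPDK on and off, moved the same way as the PPDK genes. It had 5.31, 5.18, 7.40 and 10.1 FPKM in section 1, 115, 108, 102, 114 and 155 FPKM in section 4 and 219, 285, 249.5, 301 and 256 FPKM in section 9, with no overlap between them. Its log2 changes were 3.93 ± 0.29, adjusted p = 1.12e-17 in section 4 against 1 and 1.14 ± 0.28, adjusted p = 0.000442 in section 9 against 4, and the change in section 16 against 9 did not pass the test (-0.10 ± 0.28, adjusted p = 0.853, limma). In section 2 its libraries gave 12.5, 14.0, 15.3, 13.7 and 109.6 FPKM, so replicate 6 was high for this gene too.

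pep7, another PEP carboxylase, went against pep1. It had 4.81, 4.08, 4.21, 4.36 and 2.76 FPKM in section 4 and 12.2, 13.4, 13.2 and 12.9 FPKM in section 1, a log2 change of -1.48 ± 0.21, adjusted p = 2.71e-08 (limma). It fell by another 1.02 on the log2 scale in section 9 against 4, where it had 1.65, 1.61, 1.60, 1.18 and 1.27 FPKM, a call that was lost under each rescaling of the libraries (-0.75 with equal FPKM sums, -0.49 with upper quartile scaling and -0.30 with quantile normalization) and without replicate 1 or 4 (-0.998 and -0.957). pep4 had 15.6 ± 1.82 FPKM in section 1, 23.8 ± 2.46 FPKM in section 9 and 36.3 ± 14.9 FPKM in section 16 (SD) and was not called in any of the 3 comparisons (log2 changes 0.43, 0.15 and 0.52). pep1 was thus the most abundant of the 3 PEP carboxylase genes in section 9 as well as in section 1, at 2108 ± 146 and 43.5 ± 14.5 FPKM.

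The kinase genes differed among themselves. PPCK4 had 23.9, 24.6, 24.2, 21.7 and 11.6 FPKM in section 4 and 25.7, 23.2, 30.8 and 21.0 FPKM in section 1, with no call between them (-0.27 ± 0.46, adjusted p = 0.666, limma). It fell in section 9, with 3.59, 3.85, 2.05, 1.77 and 3.30 FPKM, a log2 change from section 4 of -2.49 ± 0.43, adjusted p = 2.31e-06 (limma). PPCK1 was not called in section 9 against 4 (0.19 ± 0.25, adjusted p = 0.55, limma). Its mean was 11.1 FPKM in section 6, 6.41 FPKM in section 8 and 6.89 FPKM in section 9. It had 16.5, 19.3, 12.4, 20.5 and 20.2 FPKM in section 16 and 4.78, 5.86, 6.62, 10.6 and 6.59 FPKM in section 9, a log2 change of 1.27 ± 0.25, adjusted p = 9.82e-05 (limma). That call was lost with all 75 libraries (1.27, adjusted p = 0.0929, in a range over 16 alternatives of 3.56e-06 to 0.0929, limma). In section 4, PPCK1 had 7.07, 5.55, 5.33, 5.87 and 5.06 FPKM, against 0.974 to 3.58 FPKM in the 4 libraries of section 1, a log2 change of 1.07 ± 0.27, adjusted p = 0.000635 (limma) whose call was lost in 5 of 16 alternatives, with log2 changes there of 0.83 to 0.99. PPCK2 was low everywhere, with 0.194 ± 0.434 FPKM in section 9 and 2.19 ± 0.740 FPKM in section 4 (SD), a log2 change of -1.44 ± 0.33, adjusted p = 0.000218 (limma) that lost its call with quantile normalization (-0.65, adjusted p = 0.0922, in a range over 16 alternatives of 1.12e-05 to 0.0922). In section 9 it read 0.971 FPKM in replicate 2 and 0 in the other libraries, so this change rests on values near 0.

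**Figure D5:**
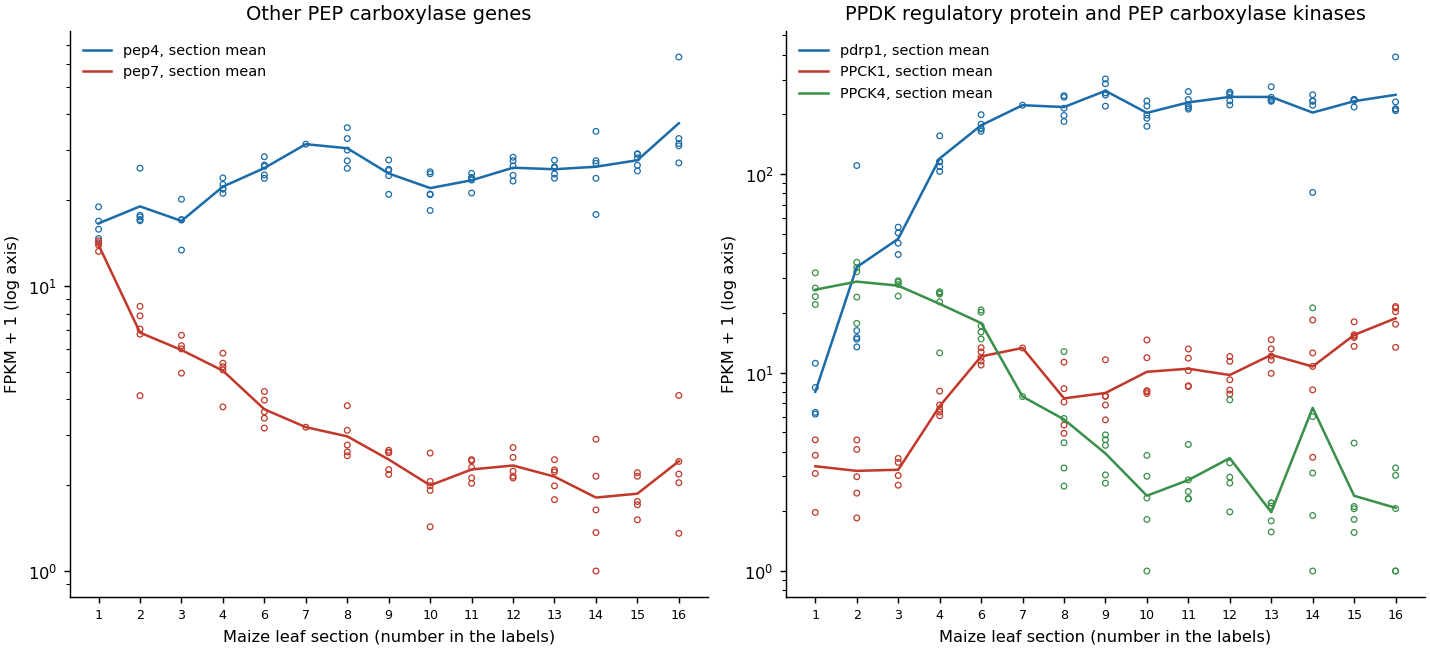
FPKM + 1 (log axis) by leaf section of other PEP carboxylase genes (pep4, pep7) and of the PPDK regulatory protein gene pdrp1 and the kinase genes PPCK1 and PPCK4. Circles are the libraries kept and lines join section means. pdrp1 climbs with the PPDK genes, and PPCK1 is highest in section 16. By mean, pep7 is highest in section 1 and PPCK4 in section 2, and both are lower from section 8 on than in section 4, without a steady fall.

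The other genes of the C4 cycle, 14 in a list of bicarbonate supply, decarboxylation, amino transfer and envelope transport that holds none of the 4, followed the same 3 stretches by count. In section 4 against 1, 10 were called higher and none lower, where 19.2% of all tested genes were higher and 18.1% lower. The median log2 change was 2.56 against -0.02 over all tested genes. In section 9 against 4, 7 were higher and none lower (median 0.76 against -0.59), where 5.03% of all tested genes were higher and 30.3% lower. In section 16 against 9 none was called (median 0.08 against 0.08), which is near the low shares over all tested genes, 7.67% higher and 4.49% lower. The largest changes in section 4 against 1 were those of GRMZM2G121878, listed for bicarbonate supply (5.24 ± 0.38, adjusted p = 5.08e-18), and GRMZM2G138258, listed for envelope transport (4.34 ± 0.33, adjusted p = 3.83e-17; limma). In section 9 against 4 they were those of GRMZM2G001696, listed for decarboxylation (4.46 ± 0.69, adjusted p = 2.53e-07), and GRMZM2G088064, listed for amino transfer (3.23 ± 0.37, adjusted p = 1.14e-10; limma). GRMZM2G001696 had 1318 ± 90.0 FPKM in section 9 and 151 ± 246 FPKM in section 4 (SD, n = 5 each). The section 4 mean rests on replicate 6 at 586 FPKM, against 18.1 to 96.3 FPKM in the other 4 libraries, and without replicate 6 the log2 change was 5.27 (adjusted p = 1.5e-10, in a range over 16 alternatives of 1.5e-10 to 0.00206, limma). In section 16 against 9, its change of 1.30 ± 0.69, adjusted p = 0.175, and that of pOMT1 (GRMZM2G383088), listed for envelope transport, -0.71 ± 0.16, adjusted p = 0.000596, were the largest in each direction and were not called (limma).

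Markers of other cells and states moved along the same sections, and their part in the values of the 4 genes was not tested. Of 5 bundle-sheath markers, 4, 3 and 1 were called higher in section 4 against 1, section 9 against 4 and section 16 against 9, and none lower, where 19.2%, 5.03% and 7.67% of all tested genes were higher. ME1 (GRMZM2G085019) and GRMZM2G001696 are also in the list of other C4 cycle genes above, so the counts of these lists overlap. In section 9 against 4 both were called (log2 changes 1.97 and 4.46). Of the markers outside that list, GRMZM2G162529 was called there (1.85) and GRMZM2G113033 (0.79) and GRMZM2G162200 (0.32) were not. In section 4 against 1, GRMZM2G001696 was not called (log2 change 1.57 ± 0.73, adjusted p = 0.0687, limma) and the other 4 markers were called higher. Only GRMZM2G162200 was called in section 16 against 9. The summed level of all 5 bundle-sheath markers ranged 569.8 to 813 FPKM in section 1, 5875 to 8517 in section 4, 12545 to 14477 in section 9 and 14468 to 30612 in section 16. Of 5 markers of dividing cells (PCNA, ribonucleotide reductase and histone H2B), 4 were called lower in section 4 against 1, 2 in section 9 against 4 and none in section 16 against 9, where 18.1%, 30.3% and 4.49% of all tested genes were lower, so that the second count is near the share over all genes. Their summed level ranged 339 to 361 FPKM in section 1, 54.1 to 94.0 in section 2, 20.0 to 35.2 in section 4 and 5.40 to 27.0 in section 9, so section 1, lowest for the 4 genes, was highest for these. Of the 5 leaf greening markers, all were called higher in section 4 against 1 (19.2% of all tested genes), none in section 9 against 4 (5.03%), and 1 was called lower in section 16 against 9 (4.49%).

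Among 12106 genes with a mean of at least 5 FPKM, likeness to each of the 4 genes was measured by Pearson's r on log2(FPKM + 1) over the 69 libraries, in which all genes of a library share its depth and its pool of plants. The genes most like pep1 were GRMZM2G084142 (r = 0.995), GRMZM2G329047 (0.995) and GRMZM2G089249 (0.991), none of which has a gene name in the reference table, followed by C4ppdkZm1 (0.991). The genes most like mdh6 included GRMZM2G089249 (0.994), cp29 (GRMZM2G033885, 0.990) and shbp1 (GRMZM5G814089, 0.990). Those most like C4ppdkZm1 included GRMZM5G836250 (0.993), psaN (GRMZM2G080107, 0.991), a photosystem I subunit gene, and pep1 (0.991). CYPPDKZM2 was most like sut1 (GRMZM2G034302, 0.988), a sucrose transporter gene, and ME1 (GRMZM2G085019, 0.988), the NADP-malic enzyme gene of the bundle sheath, followed by GRMZM2G079759 (0.987) and C4ppdkZm1 (0.986). Such values were common: 603 to 709 genes had an r of at least 0.9 with each of the 4. By Spearman's rho the order changed, and the top 5 of pep1, C4ppdkZm1, CYPPDKZM2 and mdh6 shared 2, 0, 1 and 2 genes with those by r. By rho, the gene most like CYPPDKZM2 was C4ppdkZm1 (0.984).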

How the data were processed

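The authors deposited FPKM values of maize leaf sections in 1 table, made with TopHat2 2.0.10 and Cuffdiff 2.1.1 on B73 RefGen_v3, per the submitters' processing notes. Libraries were strand-specific and RNA was extracted with TRIzol, per the labels' protocols. Every value column was matched to a labelled sample (0 unmatched); the rice table was not used here. FPKM hold no counts, and cannot give counting intervals, so depth is known only relative to other libraries, from the steps of low values.

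From these values, log2(FPKM + 1) was fitted with limma 3.58.1 (trend) in R 4.3.3, with section as the only factor, on the 23052 genes whose mean over 69 libraries reached 1 FPKM. The pseudocount of 1 understates changes of low genes. All 69 libraries share 1 estimate of the spread. The permutation tests and the limma fit were tested on simulated data. The genes named are the 4 enzymes' genes, the 5 genes most like each of them (those described here are a part), their relatives found by symbol, and in a list of 14 C4 genes the 2 largest changes per comparison. The members, lists and thresholds were chosen with earlier results of these data known.

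Replicate numbers mark collection dates, per the labels' protocols, so they pair the sections. Once section means were taken off, libraries of the same number correlated at a median r of 0.0146 (429 pairs), and others at -0.00436 (1717 pairs). Alternatives were a pseudocount of 0.1, no filter, 3 other scalings, all 75 libraries, a replicate block, fits of 2 sections alone, and libraries or replicates left out.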

Additional observations from a re-analysis of the deposited data

Results flagged for a closer look

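The FPKM of a gene was looked at section by section, in 56 groups of 4 or 5 libraries, for a highest or lowest library set off from the others by more than Dixon's 95% limit. Chance alone sets off a library in about 1 in 20 groups; here it occurred in 14 groups, in 5 libraries. Groups of the same library are not independent.

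Section 2 replicate 6 stood high for all 4 genes. It had 942 FPKM for pep1, against 145 to 157 FPKM in the other libraries of section 2. It had 6048 FPKM for C4ppdkZm1, against 989 to 1129 FPKM, and 119 FPKM for CYPPDKZM2, against 11.3 to 17.8 FPKM. Its mdh6 value was 275 FPKM, against 96.3 to 107 FPKM. Its relative depth was 0.841, at the low end of the range of the other section 2 libraries (0.841 to 2).

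Section 16 replicate 6, with the highest FPKM sum, had 3539 FPKM for pep1 (1673 to 1868 FPKM in the others), 31695 FPKM for C4ppdkZm1 (14353 to 17615 FPKM) and 897 FPKM for mdh6 (380.2 to 405 FPKM).

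Section 3 replicate 1 had 596 FPKM for pep1, against 383 to 394 FPKM in the others, and 3968 FPKM for C4ppdkZm1, against 2340.2 to 2534 FPKM. Section 12 replicate 4 was low, with 1649 FPKM for pep1 (2199 to 2407 FPKM in the others), 10124 FPKM for C4ppdkZm1 (13741 to 14276 FPKM) and 193 FPKM for CYPPDKZM2 (307 to 349 FPKM); its profile resembled section 9 most closely. Section 15 replicate 4 was low as well, with 1649 FPKM for pep1 (1887 to 1921 FPKM) and 13113 FPKM for C4ppdkZm1 (18122 to 18949 FPKM).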

How the results depend on the processing

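All 4 genes kept direction and call in section 4 against 1 and section 9 against 4 under the 16 alternatives. In section 16 against 9, where none was called, pep1 changed sign without section 12 replicate 4, section 14 replicate 2 and section 16 replicate 3 (0.0215) and with 1 replicate left out (-0.265 to 0.0334), and CYPPDKZM2 with equal FPKM sums (-0.0440), upper quartile scaling (-0.0361) and quantile normalization (-0.115); the cause was not tested. The calls over all genes in that comparison numbered 2803, but 1223 with all 75 libraries and 1477 with the 2 sections fitted alone. The steps called for the 4 genes numbered 8, 5 to 10 with 1 replicate left out and 11 without section 2 replicate 6, a setting chosen after seeing the data.

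The share of calls that were higher moved with the scaling. In section 9 against 4 it was 14.2%, and 25.6% with equal sums, 42.3% with upper quartile scaling and 50.0% with quantile normalization (median gene -0.59, -0.31, -0.05 and 0.12). In section 4 against 1 it was 51.5%, and 39.7% with equal sums (median -0.24). In section 16 against 9 it was 63.1%, and 44.2%, 43.9% and 47.3% under those 3 scalings and 50.7% without section 16 replicate 6.

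With 1 replicate left out, the log2 ratio of pep1 over C4ppdkZm1 ranged -0.22 to -0.17 in section 4 against 1, -0.27 to -0.23 in section 9 against 4 and -0.32 to -0.29 in section 16 against 9. That of mdh6 over pep1 ranged -1.97 to -1.75 in section 4 against 1 and -0.40 to -0.33 in section 16 against 9, where -0.40 is without section 16 replicate 6. That of CYPPDKZM2 over C4ppdkZm1 ranged -0.72 to -0.47 in section 4 against 1 and 0.78 to 0.89 in section 9 against 4. Fewer libraries entered these exact tests, which raises the smallest p they allow.

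With the replicate block, the genes called numbered 8659 in section 4 against 1, 8149 in section 9 against 4 and 2812 in section 16 against 9, and the steps of the 4 genes numbered 9. The block changed no call of the 4 genes beyond the steps named for pep1 and CYPPDKZM2. FPKM give no read counts, so the precision of low values such as CYPPDKZM2 in section 1 is unknown.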
